A study of Homo sapiens with 17 samples.

Results

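The aldo-keto reductase genes AKR1C1, AKR1C2, AKR1C3, AKR1C4, AKR1B1, AKR1B10, AKR1D1 and AKR1A1 were taken by symbol, 8 of the 63187 genes in the count table, together with every open chromatin peak that the authors' annotation assigned to one of them, 19 of 58372 peaks with counts. The cells were HepG2, an established human liver carcinoma line whose genotype the labels give as wild type, and all groups share that line. They were kept for 4 days with 0 µM (the control), 2 µM or 10 µM of 5-azacytidine, a nucleoside drug that cells incorporate into RNA and DNA, where it captures the enzymes that methylate cytosine, with fresh medium each day. There were 9 RNA-seq libraries, with 3 for every dose. The 8 ATAC-seq libraries, which show open chromatin by where a transposase can insert, were 3 for the control, 3 for 2 µM and 2 for 10 µM. One cell line stands for the tumour type here, and the labels do not say whether the replicates came from separate cultures, so the errors and p-values measure the spread between these libraries only.

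Aldo-keto reductases are soluble enzymes that use NADPH to reduce aldehydes and ketones to alcohols. In liver they clear steroid hormones and reactive carbonyls and take part in bile acid synthesis. AKR1C1, AKR1C2, AKR1C3 and AKR1B10 are known targets of NRF2 (gene NFE2L2), the transcription factor of the oxidative stress response, while AKR1C4 and AKR1D1 are known as genes of differentiated hepatocytes under liver transcription factors.

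The 4 AKR1C genes lie side by side on chromosome 10 and arose by duplication, so the starts of the genes are shown here to let their likeness be seen. The sequences are the 250 bases upstream of a RefSeq start site in GRCh38.p14, 5′ to 3′ on the strand of the gene, in lower case with every CG, the dinucleotide at which DNA is methylated, in capitals. AKR1C1 is on the plus strand at chr10:4963165-4963414, AKR1C2 on the minus strand at chr10:5003858-5004107, AKR1C3 (the start that has a peak over it) on the plus strand at chr10:5094164-5094413, and AKR1B1, shown for contrast, on the minus strand at chr7:134459101-134459350.
AKR1C1: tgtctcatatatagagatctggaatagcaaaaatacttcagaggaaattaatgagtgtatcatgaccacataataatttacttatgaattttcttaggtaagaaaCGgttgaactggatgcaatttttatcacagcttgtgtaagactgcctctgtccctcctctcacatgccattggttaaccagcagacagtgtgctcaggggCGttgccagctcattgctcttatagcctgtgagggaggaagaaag
AKR1C2: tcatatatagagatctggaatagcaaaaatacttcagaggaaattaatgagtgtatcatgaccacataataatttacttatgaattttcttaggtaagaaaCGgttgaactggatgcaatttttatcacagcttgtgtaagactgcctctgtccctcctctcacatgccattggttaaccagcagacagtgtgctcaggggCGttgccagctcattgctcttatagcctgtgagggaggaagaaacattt
AKR1C3: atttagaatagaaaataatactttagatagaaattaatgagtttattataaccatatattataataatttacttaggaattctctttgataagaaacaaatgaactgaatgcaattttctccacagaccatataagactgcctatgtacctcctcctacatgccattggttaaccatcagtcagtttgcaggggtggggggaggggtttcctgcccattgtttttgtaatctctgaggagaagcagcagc
AKR1B1: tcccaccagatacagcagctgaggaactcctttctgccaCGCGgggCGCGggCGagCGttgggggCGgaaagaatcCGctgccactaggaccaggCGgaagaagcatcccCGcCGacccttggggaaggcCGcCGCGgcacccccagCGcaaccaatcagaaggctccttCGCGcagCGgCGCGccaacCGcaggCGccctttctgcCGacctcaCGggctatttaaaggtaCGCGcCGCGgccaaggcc

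Over windows of 300 bases from 250 before to 50 after each start, AKR1C1 and AKR1C2 were identical at 288 of 292 aligned bases (98.6%). The other pairs of AKR1C windows had identities between 76.2% and 81.6%, the second AKR1C3 start included. Identity was counted over aligned bases only, and shares in this range were not particular to the AKR1C genes. The AKR1B1 window at the start 134459239 matched AKR1C2 at 179 of 228 aligned bases (78.5%) and AKR1C1 at 159 of 235 (67.7%). The windows of AKR1C1 and AKR1C2 each held 3 CG, those at both AKR1C3 starts held 0, and those of AKR1C4 and AKR1D1 held 1 each. AKR1A1 held 21, and the windows at the starts of AKR1B1 held 33 and 18, beside a median of 14 (quartiles 4 and 28) over all 35116 RefSeq promoter windows. Searched on both strands, no window of the genes had TGACNNNGC, the core of the antioxidant response element that NRF2 binds, which 13.3% of all windows held, or TGANTCA, the AP-1 site, which 7.71% held. The HNF1 motif, searched in a strict form, was not found in them either. Only 0.0057% of all windows held it, so its absence says nothing about these genes. Most of all windows also lacked the other motifs, and bases outside the windows were not searched. Absence of those motifs here thus does not set these genes apart or show that they lack such sites elsewhere. Promoter windows were matched for 7 of the 8 genes, and AKR1B10 had none in the table.

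RNA totals ranged from 35553052 to 46430168 counts per library and ATAC totals from 2896671 to 7864321 counts in peaks. As a check of the labelled liver cell type, all 10 hepatocyte markers analysed had counts, with a summed level of 24485 to 39684 CPM in the control, of 14461 to 22936 CPM with 2 µM and of 772 to 1137 CPM with 10 µM. Among markers of other cells, the leukocyte genes PTPRC and MS4A1 had no count in any library. The leukocyte list summed to 2331 to 3450 CPM in the control, to 1121 to 1696 CPM with 2 µM and to 57.7 to 89.4 CPM with 10 µM, nearly all of it LYZ, at 2747 ± 611 CPM (SD, n = 3) without drug. The sum hides CD14, the other leukocyte gene tested. It had log2 changes of 2.196 at 2 µM (adjusted p = 0.0138) and -3.839 at 10 µM (adjusted p = 6.04e-05). The summed levels of the lists for fibroblasts and stellate cells (29.5 to 55.7 CPM) and endothelium (5.58 to 20.4 CPM) were low at 0 µM. Endothelium had 17.1 to 23.2 CPM at 2 µM and 3.34 to 7.54 CPM at 10 µM. Its PECAM1 had a log2 change of 2.69 at 2 µM (adjusted p = 0.0169). The list for cholangiocytes summed to 1024 to 1292 CPM at 0 µM, 1029 to 1354 CPM at 2 µM and 516 to 1207 CPM at 10 µM. Its KRT19 rose by 1.51 at 2 µM (adjusted p = 0.046) and by 2.17 at 10 µM (adjusted p = 0.000639). At 10 µM SPP1 (-5.13), EPCAM (-1.29) and SOX9 (-1.27) fell. Mitochondrially encoded RNA made up 0.275% and 0.235% of the counts in replicate 3 at 0 µM and at 2 µM, against 0.0683% to 0.150% in the other RNA libraries.

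Levels are given in CPM, counts scaled to a common library size, and differences as log2 ratios of the edgeR fit with a standard error (SE). The SE was derived from the test, as the absolute log2 ratio divided by the square root of its F statistic. It thus restates the test and is rough for genes with few counts. The 8 genes were chosen by their family and selected on RNA levels at the 3 doses, AKR1C1 and AKR1C2 having some of the most negative RNA differences at 2 µM, so their RNA is described without p-values. All 8 passed the filter on low counts. At 2 µM, 4 of the 8 genes were lower than in the control past an adjusted p of 0.05 (AKR1C1, AKR1C2, AKR1C3 and AKR1B10) and 0 were higher. At 10 µM all 8 were lower. Of all genes tested, 1.06% were called lower and 3.22% higher at 2 µM, and 25.1% lower and 23% higher at 10 µM. Between the doses, 2 of the 8 were higher at 10 µM than at 2 µM (AKR1C1 and AKR1C2) and 4 lower (AKR1C3, AKR1C4, AKR1D1 and AKR1A1), with backgrounds of 16.8% higher and 21.6% lower. Because the choice of the genes rests on these contrasts, nothing is read from the counts. Some of them turned on single libraries: AKR1C3 was not counted at 2 µM without 2 µM replicate 1 or 2, AKR1C1 not at 10 µM without 10 µM replicate 3, and AKR1C2 not between the doses without 0 µM replicate 1, any 2 µM replicate, or 10 µM replicate 1 or 2. AKR1C4 was counted as higher at 2 µM, which made 5 of the 8, with the replicate number as a block in a fit of 0 and 2 µM. It was also counted without 0 µM replicate 3, without 10 µM replicate 2, with DESeq2, with no filter on low counts, and with total counts in place of the edgeR scaling. The median log2 difference of the 8 was -1.03 at 2 µM and -1.96 at 10 µM against the control, beside -0.0097 and -0.016 over all genes. These are bulk samples, in which fewer cells that express a gene and less RNA per cell cannot be told apart.

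**Figure D1:**
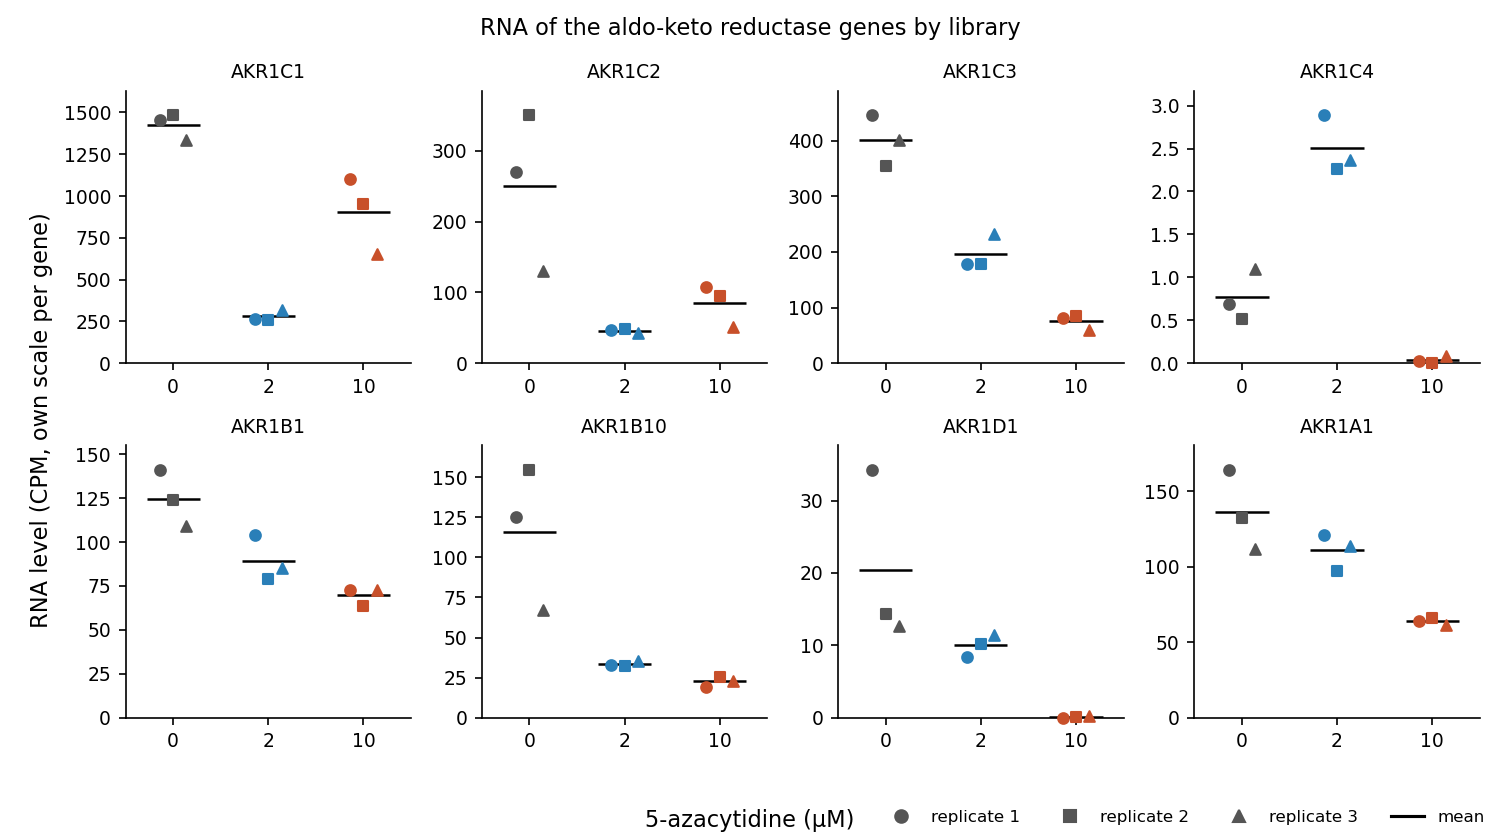
RNA level in CPM (vertical axes, one scale per gene, starting at 0) in each library by dose of 5-azacytidine in µM, with replicates 1 to 3 as circle, square and triangle and the mean as a bar. AKR1C1 and AKR1C2 are lowest at 2 µM, AKR1C3, AKR1B1, AKR1B10, AKR1D1 and AKR1A1 have their lowest mean at 10 µM, and AKR1C4 is highest at 2 µM and lowest at 10 µM.

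AKR1C1 (ENSG00000187134, chr10:4963415-4983283), which inactivates progesterone, had its lowest level at the middle dose. It stood at 1455, 1483 and 1334 CPM at 0 µM, at 264, 256 and 321 CPM at 2 µM and at 1102, 955 and 655 CPM at 10 µM. The order was 0 µM, 10 µM, 2 µM, with no overlap between any 2 doses. Its log2 difference from the control was -2.34 (SE 0.215) at 2 µM and -0.66 (SE 0.206) at 10 µM, with 1.69 (SE 0.211) between 10 and 2 µM. The 10 µM difference from the control was -0.46 without 10 µM replicate 3, the lowest of that dose, and -0.41 with total counts in place of the edgeR scaling.

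AKR1C2 (ENSG00000151632, chr10:4987775-5018000), which reduces dihydrotestosterone to a weak androgen, had the same order of doses. Its levels were 269.7, 350 and 130 CPM at 0 µM, 47.0, 48.4 and 42.8 CPM at 2 µM and 108, 95.0 and 51.1 CPM at 10 µM. Replicate 3 was the lowest of its group at each dose, and the doses did not overlap. AKR1C2 differed by -2.44 (SE 0.344) on the log2 scale at 2 µM, by -1.56 (SE 0.333) at 10 µM, and by 0.88 (SE 0.329) between 10 and 2 µM. Without replicate 3 of 0 µM and 2 µM, the libraries with the high mitochondrial share, the first 2 were -2.70 (SE 0.292) and -1.89 (SE 0.247).

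AKR1C1 and AKR1C2 are near copies, and how reads that match both were divided is unknown here, so the split between them is uncertain. The ratio of AKR1C1 to AKR1C2 counts, not corrected for length, was 5.40, 4.23 and 10.2 in the control libraries, 5.63, 5.30 and 7.50 with 2 µM, and 10.2, 10.1 and 12.8 with 10 µM. The ratio in 0 µM replicate 3 lay in the range of the 10 µM libraries. Summed, the pair stood at 1674 ± 190 CPM, 327 ± 32.2 CPM and 988 ± 258 CPM (SD, n = 3 each) at 0, 2 and 10 µM. Tested as 1 feature the pair had log2 differences of -2.36 (SE 0.221) at 2 µM and -0.76 (SE 0.211) at 10 µM.

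AKR1C3 (ENSG00000196139, chr10:5048781-5107686), which makes testosterone and reduces prostaglandins, was lower at each higher dose. It measured 446, 354 and 402 CPM at 0 µM, 178, 178 and 232 CPM at 2 µM and 80.6, 84.0 and 60.4 CPM at 10 µM. No 2 doses overlapped, and the higher level at 10 µM than at 2 µM of AKR1C1 and AKR1C2 had no counterpart here. In log2 terms AKR1C3 differed by -1.03 (SE 0.195) at 2 µM and -2.42 (SE 0.204) at 10 µM, with -1.39 (SE 0.197) between 10 and 2 µM. At 2 µM it was -0.95 without 2 µM replicate 1 and -0.96 without 2 µM replicate 2.

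AKR1C4 (ENSG00000198610, chr10:5196837-5218949), a liver enzyme of steroid and bile acid metabolism, had few reads and another order. It had 22, 20 and 43 counts in the control libraries, 115, 93 and 111 with 2 µM and 1, 0 and 4 with 10 µM. These are 0.688, 0.514 and 1.1 CPM, then 2.89, 2.26 and 2.37 CPM, then 0.0239, 0 and 0.0809 CPM. All 2 µM libraries lay above and all 10 µM libraries below the control. Its log2 difference was 1.70 (SE 0.499) at 2 µM and -4.35 (SE 0.685) at 10 µM, the latter from a fit with so few counts that its size depends on the prior count of the fit. Without 10 µM replicate 3, which had 4 of the 5 counts, the latter was -5.78, and without 10 µM replicate 2 it was -3.73. The 2 µM difference was 2.04 without 0 µM replicate 3 and 1.86 with total counts in place of the edgeR scaling.

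**Figure D2:**
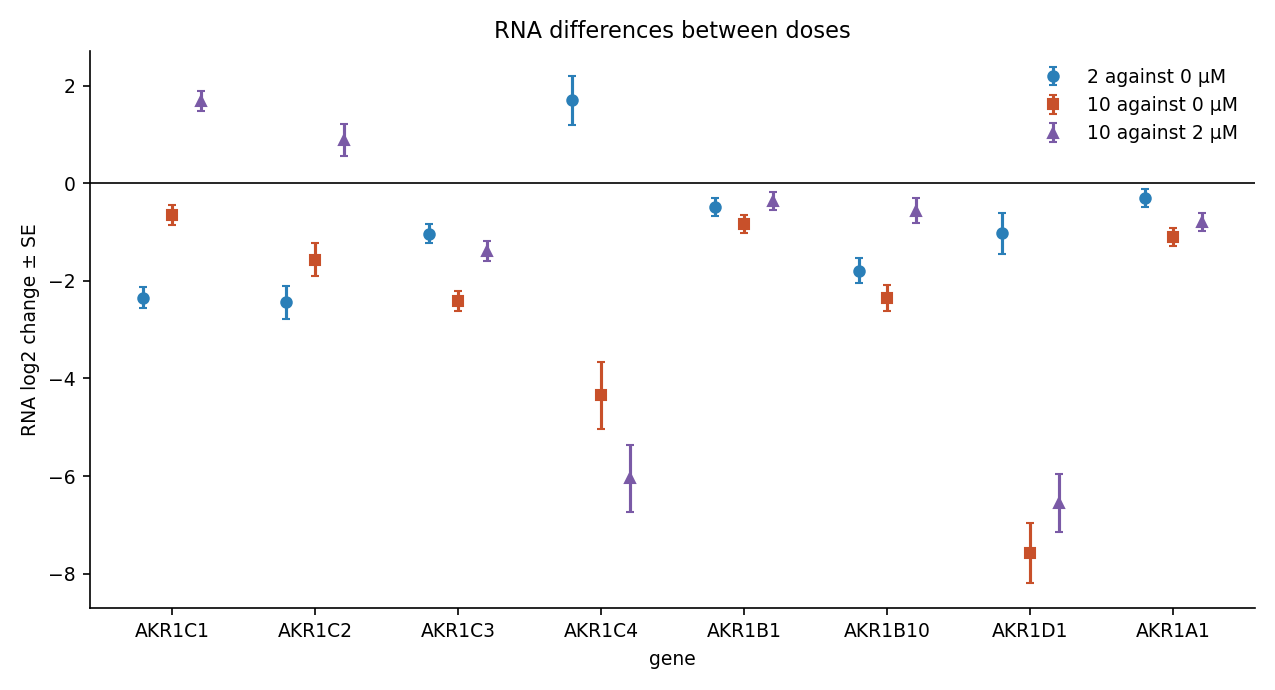
RNA log2 difference of each gene (vertical axis) with its SE as an error bar, for 2 against 0 µM (circles), 10 against 0 µM (squares) and 10 against 2 µM (triangles). AKR1C1 and AKR1C2 have positive values for 10 against 2 µM, at 1.69 and 0.88, and AKR1D1 has the lowest value at 10 µM, -7.58.

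Aldose reductase, AKR1B1 (ENSG00000085662, chr7:134442350-134459239), turns glucose into sorbitol in the polyol pathway. Its levels were 141, 124 and 109 CPM at 0 µM, 104, 78.7 and 85.2 CPM at 2 µM and 72.6, 63.9 and 72.7 CPM at 10 µM. The log2 difference was -0.48 (SE 0.179) at 2 µM and -0.84 (SE 0.18) at 10 µM. The doses did not overlap, and the step from 2 to 10 µM was -0.36 (SE 0.179).

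AKR1B10 (ENSG00000198074, chr7:134527567-134541412), a retinal reductase often raised in liver cancer, measured 125, 155 and 67.1 CPM at 0 µM, 33.0, 32.0 and 35.1 CPM at 2 µM and 19.4, 25.6 and 22.8 CPM at 10 µM. The low value of 0 µM replicate 3 still lay above every treated library. AKR1B10 had a log2 difference of -1.79 (SE 0.262) at 2 µM and -2.35 (SE 0.268) at 10 µM, or -2.08 (SE 0.181) and -2.65 (SE 0.183) without 0 µM replicate 3. AKR1B15, its near copy next to it on chromosome 7, stood at 0.314 ± 0.228 CPM (SD, n = 3) in the control and did not pass the count filter.

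AKR1D1 (ENSG00000122787, chr7:138076459-138118305) saturates a double bond of the steroid ring in bile acid synthesis and steroid clearance. It stood at 34.3, 14.3 and 12.6 CPM at 0 µM and at 8.41, 10.2 and 11.4 CPM at 2 µM. At 10 µM only 1, 3 and 11 counts were left, or 0.0239, 0.0577 and 0.222 CPM. The control and 2 µM groups came close (12.6 against 11.4 CPM) and the 10 µM libraries stood far below both. The log2 difference was -1.03 (SE 0.418) at 2 µM and -7.58 (SE 0.607) at 10 µM. Without 0 µM replicate 1, by far the highest control, these were -0.43 and -6.98, and without replicate 3 of 0 µM and 2 µM the first was -1.38. The second was -8.80 without 10 µM replicate 3.

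AKR1A1 (ENSG00000117448, chr1:45550826-45570049), an aldehyde reductase of most tissues, measured 164, 132 and 112 CPM at 0 µM, 121, 97.2 and 114 CPM at 2 µM and 64.0, 66.2 and 61.3 CPM at 10 µM. The control and 2 µM libraries overlapped and the 10 µM libraries lay below both. The log2 difference was -0.30 (SE 0.183) at 2 µM and -1.09 (SE 0.185) at 10 µM. Summed over the 8 genes, the level was 2472 ± 264 CPM in the control, 769 ± 70.3 CPM with 2 µM and 1220 ± 269 CPM with 10 µM (SD, n = 3 each). AKR1C1 made up most of it at 0 and 10 µM, with means of 1424 and 904 CPM, but not at 2 µM, with 281 CPM.

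Genes with the most similar profiles were found by the root mean square difference of log2 level, relative to the control mean, over the 9 RNA libraries. For AKR1C1 these were ADGRL1 (0.47), CD36 (0.55), GNAL (0.56), AKR1C2 (0.59) and CNNM1 (0.61). The nearest to AKR1C2 was RHBDL2 (0.46), with AKR1C1 the third and AKR1B10 the fourth. AKR1C3 had closer matches, HSPA5 (0.12), which encodes the main chaperone of the endoplasmic reticulum, SERGEF (0.17) and LDHA (0.17), which encodes a lactate dehydrogenase subunit. AKR1D1 was nearest to SERPINA6 (0.44), which encodes a carrier of cortisol in plasma. TJP3 (0.488) was the second, H1-5 (0.494) the third and NR1H4 (0.52), the bile acid receptor FXR, the fourth. At 10 µM AKR1D1 and AKR1C4 lay near or below the constant added to CPM before the log. Their distances therefore depend in part on that constant. The nearest gene was NGFR for AKR1C4 (0.42), RILPL2 for AKR1B1 (0.081), AP1M2 for AKR1B10 (0.35) and CUTA for AKR1A1 (0.09).

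Open chromatin was measured independently of the RNA that chose the genes, and each peak was tested. The authors' annotation gave AKR1C1 7 peaks, AKR1B1 4, AKR1C3 3, AKR1C2 2, AKR1B10, AKR1D1 and AKR1A1 1 each, and AKR1C4 0. Of the 19, 7 were annotated as promoter. At 2 µM, 0 of the 19 peaks rose and 3 fell, where over all peaks 15.5% rose and 7.3% fell. At 10 µM, 7 rose and 4 fell, where over all peaks 29.9% rose and 27.6% fell, so the share that changed was near that of all peaks. Between 10 and 2 µM, 6 were higher at 10 µM and 2 lower, with backgrounds of 27.5% and 27.6%. The median log2 change of the 19 peaks was -0.082 at 2 µM and 0.073 at 10 µM, against 0.02 and 0.05 over all peaks.

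**Figure D3:**
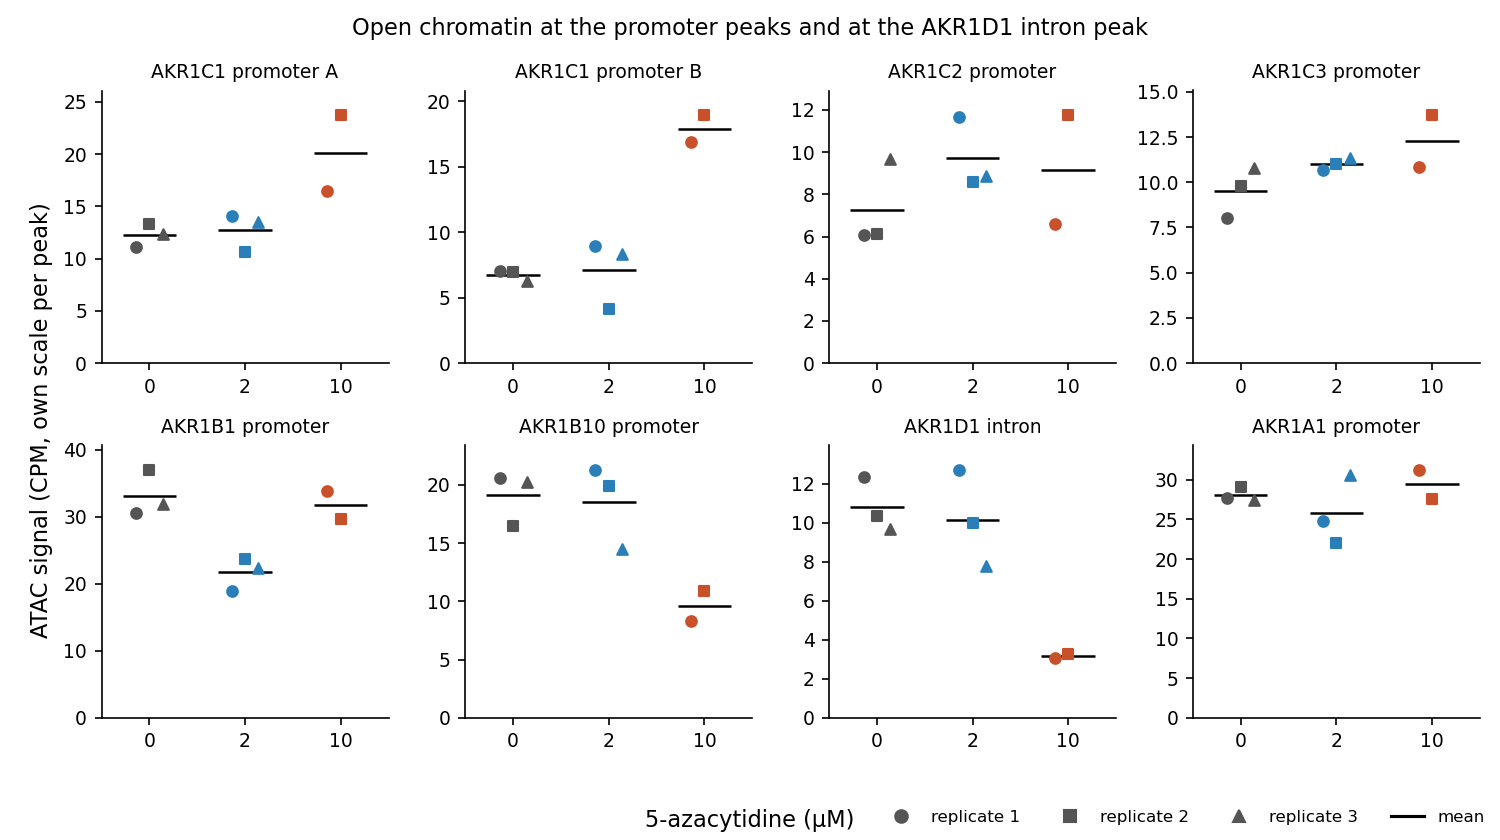
ATAC signal in CPM (vertical axes, one scale per peak, starting at 0) in each library by dose of 5-azacytidine in µM, for the 7 promoter peaks and the AKR1D1 intron peak, with replicates as symbols and the mean as a bar. Promoter peak A of AKR1C1 lies over the RefSeq start and B starts at 4965123, and both are higher at 10 µM, while the AKR1B10 promoter and AKR1D1 intron peaks are lower at 10 µM.

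AKR1C1 chromatin was more open at 10 µM, the dose at which its RNA lay between the other two. The peak over its start (chr10:4963090-4963590) measured 11.2, 13.3 and 12.3 CPM at 0 µM, 14.1, 10.7 and 13.5 CPM at 2 µM and 16.5 and 23.7 CPM at 10 µM. It rose by 0.67 (SE 0.192, adjusted p = 0.00315) at 10 µM, with both 10 µM libraries above all others. Without 10 µM replicate 2 it did not pass (adjusted p = 0.195). The 2 µM change was 0.059 (adjusted p = 0.862), at the dose where the RNA was lowest.

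The second AKR1C1 promoter peak (chr10:4965123-4965623), inside the gene body, had 7.03, 6.93 and 6.25 CPM at 0 µM, 8.93, 4.13 and 8.32 CPM at 2 µM and 16.9 and 18.9 CPM at 10 µM. It rose by 1.40 (SE 0.223, adjusted p = 1.86e-06) at 10 µM. A peak in the intergenic stretch 4879 bp upstream of the gene (chr10:4957874-4958374) rose by 1.98 (SE 0.281, adjusted p = 2.47e-07), from 2.75 ± 0.58 CPM (SD, n = 3) to 10.8 ± 1.28 CPM (n = 2). Its neighbour 5859 bp upstream (chr10:4956894-4957394) rose by 0.89 (SE 0.19, adjusted p = 0.000154). In each of these 3 peaks the 10 µM libraries lay above all others. They are peaks that passed at 10 µM, a dose with 2 libraries, and the share of all peaks with such a separation was not counted.

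Farther upstream no such rise was seen at 10 µM. The farthest peak, 23137 bp upstream (chr10:4939616-4940116), did not pass at 10 µM (-0.45, adjusted p = 0.0614). It passed as lower in 4 of 15 alternatives. The peak 15758 bp upstream (chr10:4946995-4947495) fell by 1.419 on the log2 scale (SE 0.315, adjusted p = 0.000231), from 9.75 ± 2.21 CPM at 0 µM to 3.97 ± 2.39 CPM at 10 µM. The 10 µM libraries stood apart, at 2.28 and 5.65 CPM, and the change was -0.81 (adjusted p = 0.0432) without replicate 1 of that dose and -2.18 without replicate 2. The one 15050 bp upstream (chr10:4947703-4948203) fell at 2 µM, by 0.43 (adjusted p = 0.0405), and at 10 µM stood at -0.071 (adjusted p = 0.733). That fall at 2 µM was lost on leaving out 0 µM replicate 2 (adjusted p = 0.241), 2 µM replicate 1 (0.2) or 2 µM replicate 2 (0.0735). DESeq2 (0.0676) and a replicate block over all doses (0.0567) did not call it either.

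At AKR1C2 the promoter peak (chr10:5003677-5004177) passed at neither dose. It had 6.06, 6.12 and 9.66 CPM at 0 µM, 11.7, 8.59 and 8.87 CPM at 2 µM and 6.57 and 11.7 CPM at 10 µM, so that the groups overlapped. The change was 0.39 (adjusted p = 0.273) at 2 µM and 0.28 (adjusted p = 0.391) at 10 µM. Without 10 µM replicate 1 the latter was 0.68 and passed (adjusted p = 0.0495), and without 10 µM replicate 2 it was -0.22 (adjusted p = 0.561). The intron peak 5094 bp upstream of that start (chr10:5009117-5009617) rose at 10 µM by 0.62 (SE 0.174, adjusted p = 0.00248), from 15.0 ± 2.03 CPM to 23.3 ± 1.33 CPM.

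At AKR1C3 the promoter peak (chr10:5094061-5094561) measured 8.0, 9.79 and 10.8 CPM at 0 µM, 10.7, 11 and 11.3 CPM at 2 µM and 10.9 and 13.7 CPM at 10 µM. Its changes, 0.20 (adjusted p = 0.514) and 0.33 (adjusted p = 0.183), passed at neither dose, while the RNA was lower at both. A pair of adjoining intron peaks fell at one dose each. The first (chr10:5071017-5071517) fell by 0.46 at 2 µM (adjusted p = 0.0408) and the next (chr10:5071554-5072054) fell by 0.44 at 10 µM (adjusted p = 0.0272). Neither call is firm. The first was lost without 0 µM replicate 2 or 3 or 2 µM replicate 1 or 2 (adjusted p of 0.0646 to 0.152), and the second without 0 µM replicate 2 or 10 µM replicate 1 (0.214 and 0.162). With DESeq2 both missed the threshold (0.0827 and 0.0546). So did the first with total counts (0.0517) and the second with a replicate block over all doses (0.066) or in the fit of 0 and 10 µM (0.11).

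**Figure D4:**
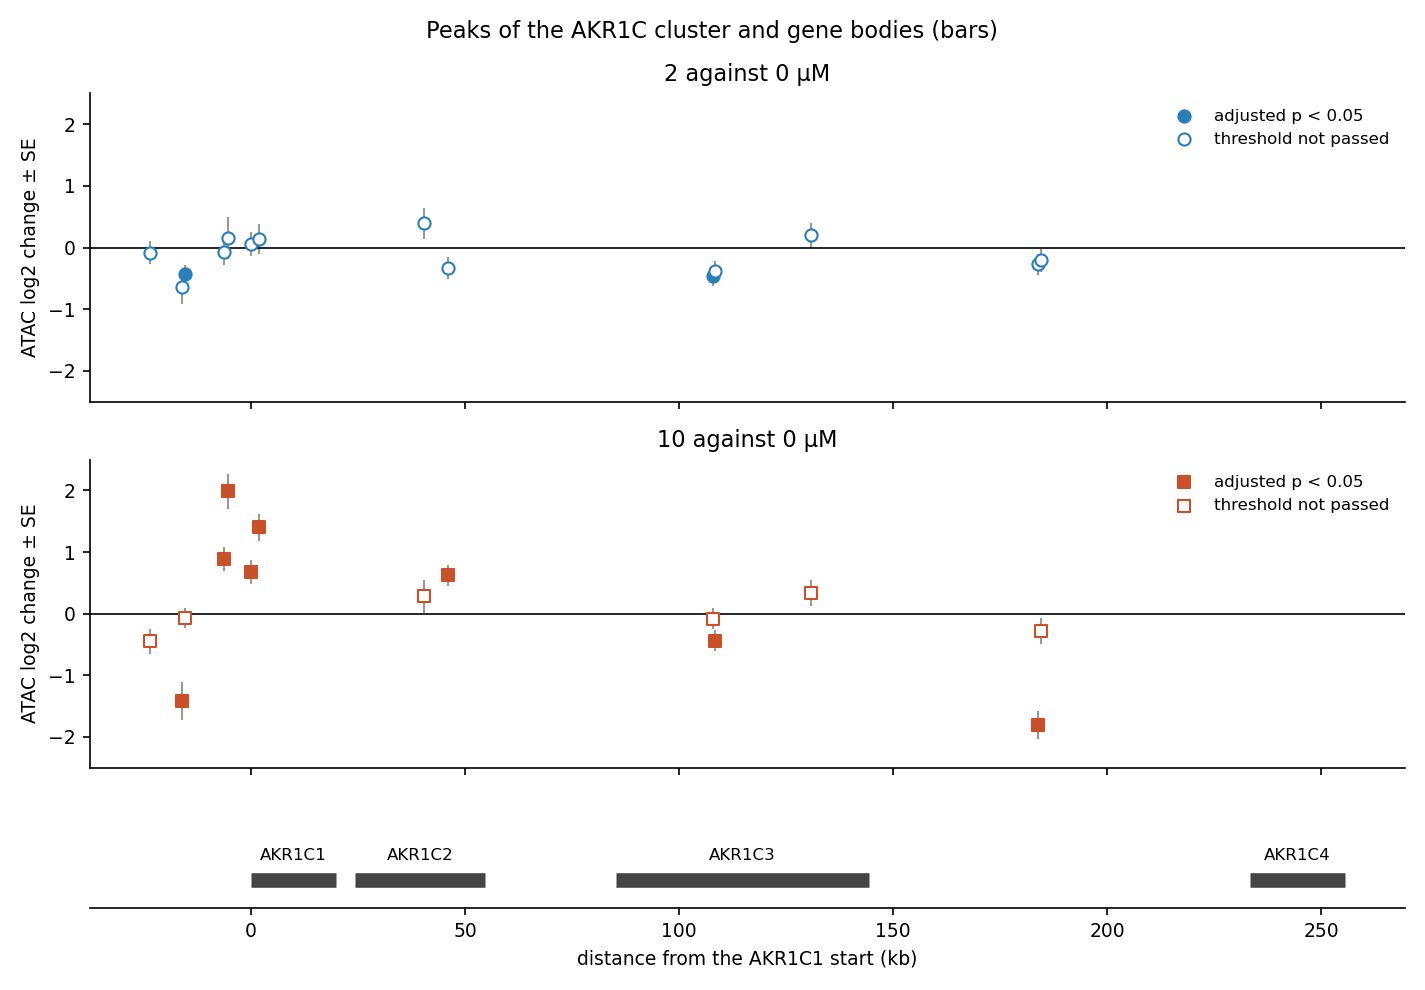
ATAC log2 change with its SE (vertical axes) of each peak in and upstream of the AKR1C cluster against distance from the AKR1C1 start in kb, for 2 against 0 µM (upper panel) and 10 against 0 µM (middle panel), with filled symbols past an adjusted p of 0.05 and gene bodies as bars. The 4 peaks nearest the AKR1C1 start are higher at 10 µM, by 0.67 to 1.98, and 2 peaks between AKR1C3 and AKR1C4 carry the symbol AKR1C8.

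No peak was assigned to AKR1C4. The nearest peaks inside the cluster lie between AKR1C3 and AKR1C4 and carry the symbol of AKR1C8, a gene at 0.0171 ± 0.0296 CPM in the control. One of them (chr10:5147070-5147570) fell by 1.81 at 10 µM (SE 0.221, adjusted p = 1.37e-08), from 19.7 ± 3.45 CPM (SD, n = 3) to 5.81 ± 1.01 CPM (n = 2). At 2 µM, where AKR1C4 RNA was highest, its change was -0.27 (adjusted p = 0.273).

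The AKR1B1 promoter peak (chr7:134458912-134459412) was lower at 2 µM. Its values were 30.6, 37.0 and 31.8 CPM at 0 µM, 18.9, 23.7 and 22.4 CPM at 2 µM and 33.8 and 29.6 CPM at 10 µM. It fell at 2 µM by 0.61 (SE 0.15, adjusted p = 0.00289), with no overlap with the control, and at 10 µM stood at -0.065 (adjusted p = 0.742). From 2 to 10 µM it rose by 0.55 (SE 0.164, adjusted p = 0.00518), a call lost without 10 µM replicate 1 (adjusted p = 0.0561). AKR1B1 RNA was lower at 10 µM than at 2 µM on average. An intergenic peak 11533 bp upstream (chr7:134470817-134471317) rose at 10 µM by 1.07 (SE 0.236, adjusted p = 0.000212). One 21396 bp upstream (chr7:134480680-134481180) rose by 0.58 (adjusted p = 0.0304), a call that ended without 0 µM replicate 1 (adjusted p = 0.153), 0 µM replicate 3 (0.0554) or 10 µM replicate 1 (0.64). It was lost in 8 of 15 alternatives, among them total counts (0.056), DESeq2 (0.139) and a replicate block over all doses (0.0655). The intron peak (chr7:134458389-134458889) passed in neither comparison with the control.

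AKR1B10 and AKR1D1 lost open chromatin at 10 µM. The AKR1B10 promoter peak (chr7:134527292-134527792) had 20.6, 16.5 and 20.3 CPM at 0 µM, 21.3, 19.9 and 14.5 CPM at 2 µM and 8.32 and 10.9 CPM at 10 µM. It fell by 1.01 (SE 0.209, adjusted p = 9.67e-05) at 10 µM and stood at -0.082 (adjusted p = 0.785) at 2 µM, a dose at which AKR1B10 RNA was lower. The AKR1D1 peak, in an intron 5510 bp downstream of a start (chr7:138097353-138097853), had 12.4, 10.3 and 9.66 CPM at 0 µM, 12.7, 9.97 and 7.77 CPM at 2 µM and 3.09 and 3.26 CPM at 10 µM. It fell by 1.75 (SE 0.282, adjusted p = 2.19e-06) at 10 µM and stood at -0.14 (adjusted p = 0.687) at 2 µM. In both genes every 10 µM library lay below every other library, a separation whose share over all peaks was not counted. AKR1A1 showed no change past the threshold at its promoter peak (chr1:45550577-45551077), with 0.073 (SE 0.158, adjusted p = 0.717) at 10 µM.

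The other genes of the family and of the pathways they serve come from lists written from general knowledge, with earlier results of these data known. Their RNA was tested, but the adjusted p-values describe these genes and are not independent of that choice. The counts are to be read against the shares of all genes tested, 3.22% higher and 1.06% lower at 2 µM and 23% higher and 25.1% lower at 10 µM. Of 5 other aldo-keto reductases with enough counts, 0 passed at 2 µM, and 4 fell at 10 µM. AKR7A2, an aflatoxin aldehyde reductase, fell by 1.03 (SE 0.194, adjusted p = 0.000812) and KCNAB2, a potassium channel subunit of the same fold, by 1.72 (SE 0.292, adjusted p = 0.000376). AKR7A3 and AKR7L had changes of -1.30 (adjusted p = 0.0397) and -1.76 (adjusted p = 0.0346).

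Bile acid synthesis, the pathway of AKR1D1 and AKR1C4, had 14 genes tested, of which 0 passed at 2 µM. At 10 µM 10 fell and 1 rose, with a median of -2.02. SLC27A2, which activates the side chain, fell by 2.55 (SE 0.242, adjusted p = 3.75e-06), and BAAT, which joins bile acids to amino acids, fell by 4.15 (SE 0.413, adjusted p = 5.64e-06). CYP27A1, the sterol hydroxylase of mitochondria, fell by 2.53 (SE 0.221, adjusted p = 2.2e-06). CYP7B1 was the 1 gene that rose, by 3.13 (adjusted p = 0.00294), from 0.0618 ± 0.037 CPM (SD, n = 3).

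Of 21 tested genes of steroid metabolism, 1 rose and 2 fell at 2 µM, and 1 rose and 13 fell at 10 µM (median -1.90). HSD17B1, which makes estradiol, rose by 4.40 at 2 µM (SE 0.377, adjusted p = 6.88e-05), from 1.16 ± 0.353 CPM to 24.6 ± 9.42 CPM, and stood at 2.65 ± 0.751 CPM at 10 µM. The genes that fell at 2 µM were SULT2A1, which sulfates steroids, by 1.27 (adjusted p = 0.0207), and UGT2B4, which adds glucuronic acid to them, by 1.67 (adjusted p = 0.0218). At 10 µM UGT2B10 fell by 8.56 and SULT2A1 fell by 7.75.

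In the polyol pathway and fructose metabolism, to which AKR1B1 belongs, 0 of 6 tested genes passed at 2 µM and 5 fell at 10 µM (median -3.46). KHK, the fructokinase, went from 113 ± 34.9 CPM to 12.0 ± 1.56 CPM (SD, n = 3 each). Of 24 other carbonyl and aldehyde enzymes, 1 rose and 1 fell at 2 µM, and 4 rose and 14 fell at 10 µM (median -0.89). ALDH1A1, a retinal dehydrogenase, fell by 1.29 at 2 µM (SE 0.201, adjusted p = 0.00355) and fell by 4.68 at 10 µM. DHRS9, a retinol dehydrogenase, rose by 5.28 (SE 0.768, adjusted p = 0.00262) and 9.09 (SE 0.788, adjusted p = 2.06e-06), from 0.077 ± 0.068 CPM to 45.8 ± 18.7 CPM at 10 µM.

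NRF2 targets outside the family were counted next. Of 33 tested, 0 rose and 2 fell at 2 µM (TKT, a transketolase, by 1.07, and UGDH, a UDP-glucose dehydrogenase, by 1.05, with adjusted p of 0.00915 and 0.0168). At 10 µM 9 rose, a share near the 23% of all genes, and 15 fell, where 25.1% of all genes did, with a median of -0.42. Those that rose included TXNRD1, the thioredoxin reductase, from 393 ± 66.0 CPM to 1865 ± 498 CPM (log2 change 2.25), and OSGIN1, which rose by 2.34 (SE 0.239, adjusted p = 6.76e-06). GPX2, a glutathione peroxidase, fell by 4.90 (SE 0.355, adjusted p = 5.74e-07) and CES1, a carboxylesterase, by 2.77 (SE 0.376, adjusted p = 6.49e-05). From 2 to 10 µM, 9 of the 33 rose and 8 fell.

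Of 11 regulators of NRF2, 0 rose and 1 fell at 2 µM, and 6 rose and 1 fell at 10 µM. The gene that fell was at both doses NFE2L2 itself, by 0.74 (SE 0.181, adjusted p = 0.0371) and 0.80 (adjusted p = 0.0027), from 195 ± 25.1 CPM to 117 ± 13.7 CPM and 112 ± 12.6 CPM. SQSTM1, which binds the NRF2 inhibitor KEAP1, rose by 2.83 at 10 µM (SE 0.264, adjusted p = 3.38e-06), as did BACH1, a repressor at antioxidant response elements, by 0.96 (SE 0.191, adjusted p = 0.0012). Of 17 liver transcription factors 0 passed at 2 µM, and 12 fell and 1 rose at 10 µM, led by NR1H4 with a fall of 6.38. The 10 hepatocyte markers all fell at 10 µM, and 3 fell at 2 µM. Their part in the differences of the 8 genes was not tested.

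**Figure D5:**
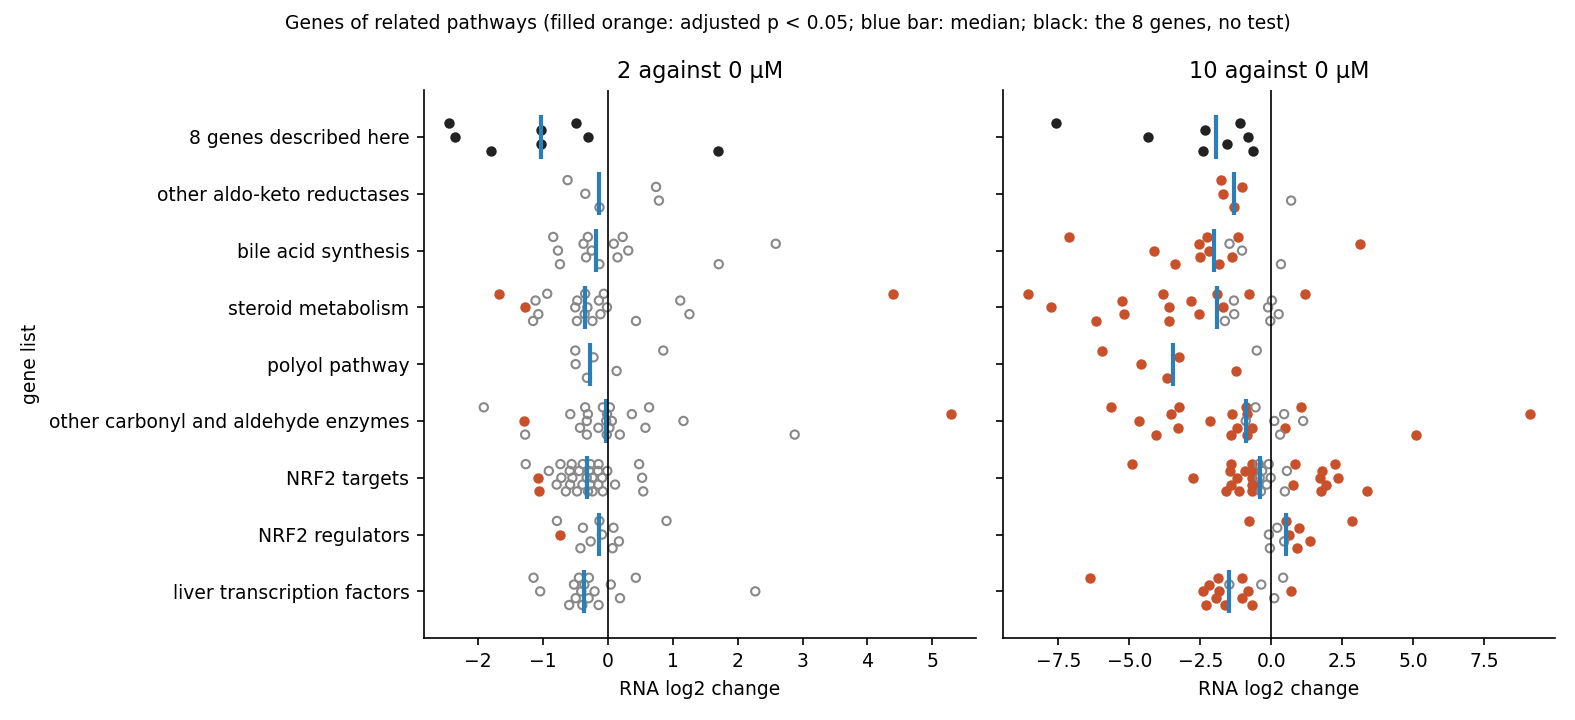
RNA log2 change (horizontal axes) of every tested gene of each list (rows), for 2 against 0 µM (left) and 10 against 0 µM (right), with filled orange points past an adjusted p of 0.05, open points short of it, blue bars for the median and the 8 genes described here in black without a test. At 10 µM the medians lie between -3.46 for the polyol pathway and 0.50 for the NRF2 regulators.

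Genes next to the 8 in the genome were counted as well. Of the 5 RefSeq genes on each side of each of them, 47 were not among the 8 and 13 of these had enough counts to be tested. At 2 µM 0 of the 13 passed. At 10 µM 2 rose and 6 fell, where 23% of all genes rose and 25.1% fell. Near AKR1B1 and AKR1B10 on chromosome 7, LRGUK (3.26) and BPGM (0.80) rose, and SLC35B4 (-0.59), LINC03060 (-1.12) and CALD1 (-1.63) fell. The others that fell, MMACHC (-0.78), PRDX1 (-0.60) and NASP (-2.10), lie near AKR1A1.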

How the data were processed

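Whole-number RNA counts for each gene are the values the authors deposited. The submitters' processing notes name HISAT2 2.2.1, HTSeq 2.0.4, DESeq2 1.42.1, DiffBind 3.12.0 and hg38, with no role or order. The RNA kit was stranded per the labels, and no source used here says if counting respected strand. ATAC values are deposited raw counts in consensus peaks, of which 58372 of 63621 had counts. Peak annotation and a score per peak, used in 1 alternative, are the authors', as deposited. The authors also deposited a signal, their size-scaled counts, in which the columns for 10 µM replicates 2 and 3 hold each other's counts, so that table served for that check alone. Of the gene identifiers 62030 matched a symbol.

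Each assay was fitted once with edgeR 4.0.16 (R 4.3.3), all its libraries together and 1 mean for each dose, after TMM scaling and the filter of the package on low counts, and tested by the quasi-likelihood F-test. P-values were adjusted by Benjamini-Hochberg over the 18999 genes or 58372 peaks tested. The test was tried on simulated data first. Alternatives changed the scaling, tool, filter, libraries, pairing and the counting of AKR1C genes and peaks. Same-numbered RNA libraries at 0 and 2 µM deviated together (correlations 0.194, 0.264 and 0.283), so the fit with the replicate block is given beside the 1 count of the 2 µM comparison that it changed among the 8 genes. At 10 µM, by the labels of the raw counts (-0.0652 to 0.0559), and in ATAC the numbers did not pair the libraries. Which labels of 10 µM RNA replicates 2 and 3 are right cannot be told. With these 2 exchanged, replicate 3 would have 0.0893 with 0 µM and 0.163 with 2 µM. Replicate 2 would have -0.0122 and -0.0482, so pairing at 10 µM is unsettled for RNA. The genes and lists were chosen with earlier results of these data known. Named were all 8 genes, their promoter peaks, up to 3 further peaks each by adjusted p at 10 µM, and in each list up to 4 genes by size of change among those reaching 1 CPM in 1 of the 2 groups. Names outside this rule were chosen after their values were seen: AKR7A3 and AKR7L at 10 µM, CYP7B1, TXNRD1 and NFE2L2 at 10 µM, LYZ, AKR1B15, AKR1C8, the AKR1B1 intron peak, the peaks called at 2 µM alone, and the neighbouring genes. The AKR1C1 peak 23137 bp upstream was named outside this rule too. Likeness used log2(CPM + 0.125) for genes of at least 1 CPM on average. Protein sequences of the genes were not analysed here.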

Additional observations from a re-analysis of the deposited data

How the results depend on the processing

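Of the alternatives to the counts of calls, 144 stayed within 1.5 times the main count and 21 did not. AKR1C1 to AKR1C4 counted as 1 feature left 5 features, of which 2 passed at 2 µM, 5 at 10 µM and 3 between the doses, since fewer features were tested. The summed feature had -1.98 at 2 µM, against the higher AKR1C4, and 1.02 between 10 and 2 µM, against the lower AKR1C3 and AKR1C4. Without 1 library at a time, 3 to 5 of the 8 genes passed at 2 µM (6 without both replicates 3), 7 to 8 at 10 µM and 5 to 7 between the doses, and 1 to 5, 10 to 11 and 8 to 11 peaks. With total counts in place of TMM the median of all genes moved to 0.148 at 2 µM and 0.237 at 10 µM. Of the 8 genes then 1 was higher (AKR1C4) and 4 lower at 2 µM and 7 lower at 10 µM (AKR1C1 did not pass), and the share of higher genes among all called went from 75.2% to 90.6% and from 47.8% to 60.7%.

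Of the 3 peaks called at 2 µM, the count became 5 without 0 µM replicate 1 or either 10 µM replicate, and 1 without 0 µM replicate 2, without 2 µM replicate 2 or with DESeq2; the cause was not tested. By position within 5000 bp 7 of 13 peaks passed at 10 µM. At or above the median score 5 of 10 did, and 4 between the doses, since fewer peaks were counted. Of 130 distinct list genes 8 passed at 2 µM, against 17 with DESeq2, 19 with no filter and 4 to 25 without some libraries: 4 without 2 µM replicate 1 or 2, 16 without 2 µM replicate 3, 17 without 0 µM replicate 3 and 25 without both replicates 3. The cause was not tested. At 10 µM 95 passed (83 to 97) and between the doses 89 (74 to 97).

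A replicate block in a fit of all doses left 4, 8 and 6 of the 8 genes past the threshold at 2 µM, at 10 µM and between the doses, and 2, 9 and 9 peaks. For RNA the block over all doses rests on the raw-count labels of the 10 µM replicates, which are uncertain. In fits of 2 groups 5 peaks passed at 2 µM both with and without the block. In the fit of 0 and 2 µM the block changed no call of the 8 genes other than AKR1C4.

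Some peaks turned sign in a comparison they did not pass, most of them without 1 library at a time, over these ranges. At 2 µM the AKR1C1 peaks starting at 4963090, 4965123 and 4957874 ranged over -0.0436 to 0.149 (with -0.000802), -0.0451 to 0.341 and -0.0296 to 0.348, AKR1A1 over -0.267 to 0.00293, AKR1B10 over -0.233 to 0.1246 and AKR1D1 over -0.32 to 0.0854. At 10 µM AKR1C1 4947703 ranged over -0.218 to 0.0498, AKR1A1 over -0.039 to 0.0734, AKR1C2 5003677 over -0.22 to 0.681 and AKR1C3 5071017 over -0.306 to 0.0635; under the block AKR1C3 5071017 had 0.0597 and 0.00705 and AKR1A1 -0.00162. Between 10 and 2 µM AKR1C2 5003677 ranged over -0.567 to 0.334 (with 0.00475), AKR1B1 134458389 over -0.15 to 0.0373 (with 0.0359), AKR1B1 134480680 over -0.118 to 0.425, AKR1C3 5071554 over -0.183 to 0.0789 and AKR1C3 5094061 over -0.0604 to 0.339. One of these settings passed: AKR1C2 5003677 at 10 µM without 10 µM replicate 1, 0.681 (adjusted p = 0.0495). For the others no direction was detectable, and the part of depth or of the number of libraries in this was not tested.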
